A study of Mus musculus with 8 samples.

Results

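The HoxB cluster is a row of homeobox genes on mouse chromosome 11, and its transcripts were read here in sorted common myeloid progenitors (CMPs) of young and old mice. All 10 genes of the cluster (Hoxb1 to Hoxb9 and Hoxb13) were taken by their gene name in the array files, which gave 11 probes out of 55681 and 10 gene names out of 34797. Hoxb3 has 2 probes and each of the other genes has 1. The cluster was selected on its measured old minus young differences in these same arrays, so the age differences of its genes are given as a description. In old CMPs the Hoxb2 probe was 4.23-fold and the Hoxb5 probe 3.60-fold brighter than in young CMPs. The Hoxb5 signal of young CMPs was close to the limit of the array. These sizes depend on the background correction. Under normexp the log2 difference was 1.23 in place of 2.08 for Hoxb2 and 0.90 in place of 1.85 for Hoxb5. The probes of Hoxb4 and Hoxb6 and the Hoxb3 probe shared with Hoxd3 differed by less than 1.5-fold. The other Hoxb3 probe was 2.66-fold brighter but above background on only 2 young and 2 old arrays, and its difference could not be settled (limma, adjusted p = 0.474). The 5 remaining genes, at both ends of the cluster, were above background on no array.

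Hox genes encode transcription factors that bind DNA through a homeodomain, usually together with the cofactors of the Meis and Pbx families. They lie in clusters, and their order on the chromosome follows the order in which they are switched on along the body axis of the embryo. Groups of neighbouring Hox genes are held silent by Polycomb proteins and kept active by Trithorax proteins. In blood formation, genes of the anterior part of HoxB and of HoxA are active in stem and early progenitor cells and are switched off as the cells mature. Hoxb4 is known for expanding stem cells when it is overexpressed, and Hoxb5 is known as a marker of long-term haematopoietic stem cells (HSCs) in the mouse.

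All 8 arrays carried RNA of FACS-sorted CMPs from untreated wild type C57BL/6J mice, with 4 arrays of young mice (replicates 3 to 6, labelled 2 to 3 months) and 4 of old mice (replicates 2 to 5, labelled 22 to 24 months). The design text of the series gives somewhat other ages, 3 to 4 and 22 to 26 months. The labels do not say which arrays came from separate mice, so the errors and p-values measure the spread between these samples, which may in part be technical. Each of the 2 slides held 2 young and 2 old arrays. Levels are log2 signal minus the 75th percentile of the array, so 0 is the signal of a probe at that percentile, and 33479 probes that were well above the local background on at least 4 of the 8 arrays entered the tests. Between 55.7% and 63.2% of the probes of an array were well above background, and the dimmest such probe of an array lay between -5.23 and -4.39. The CMP gate genes Kit (2.70 ± 0.19 in young and 3.01 ± 0.29 in old, SD, n = 4) and Cd34 (6.75 ± 0.18 and 6.54 ± 0.19, SD, n = 4) were above background on every array, and neither was called (limma, adjusted p = 0.998 for both). Of the 4 gate genes tested, 3 had a lower mean in old CMPs, and the median difference was -0.29 on the log2 scale.

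Of the 11 HoxB probes, 6 were tested, and they stand for 5 genes, Hoxb6, Hoxb5, Hoxb4, Hoxb3 and Hoxb2. These lie side by side in the anterior part of the cluster, between 104.7 and 157.3 kb from the Hoxb13 probe. A probe was called where limma gave an adjusted p below 0.05 together with a difference of 1.5-fold or more. This held for 2 of the 6 probes, both higher in old CMPs. Over all tested probes 0.191% were called in either direction and 0.158% as higher. At an unadjusted p under 0.05, limma gave 3 of the 6 HoxB probes and 6.34% of all tested probes. Since the genes were chosen with this contrast known, nothing is read from these counts. The median difference of the 6 probes was 0.87 on the log2 scale and that of all tested probes -0.02. A positive difference was seen for 6 of the 6 HoxB probes and for 46.7% of all tested probes. Both values leave out the 5 probes that did not pass the filter on dim signals.

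**Figure D1:**
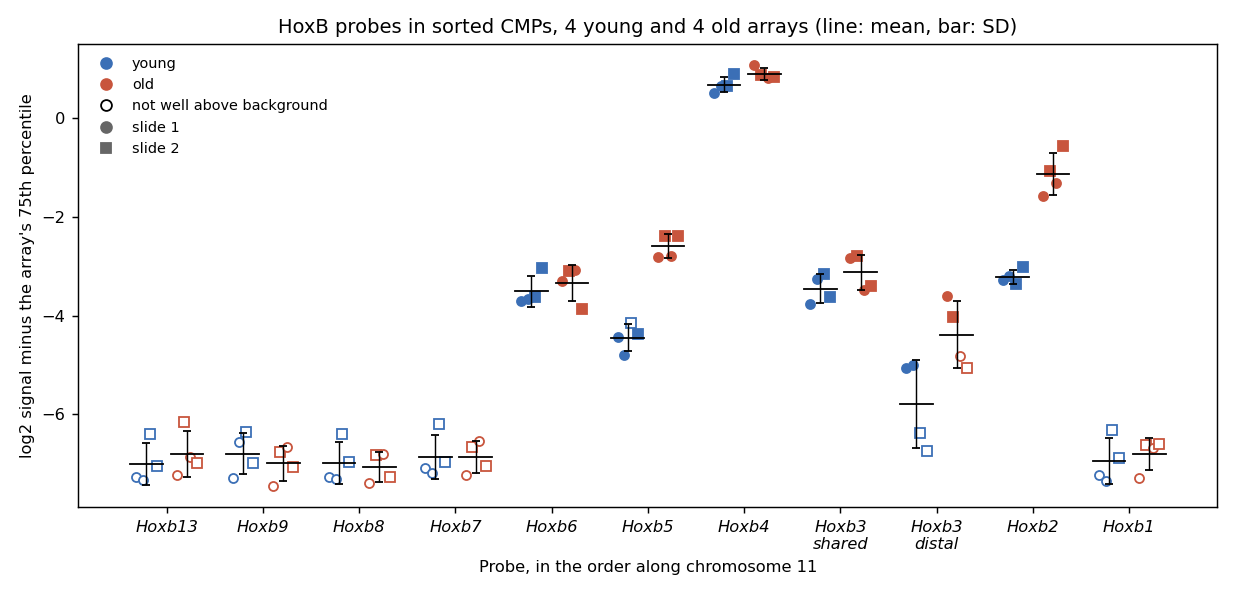
Level of each HoxB probe on each array on the log2 scale, relative to the 75th percentile of the array, in the order along chromosome 11, for 4 young (blue) and 4 old (red) arrays on slide 1 (circles) and slide 2 (squares). Open symbols are not well above background, lines are means and bars SD. Hoxb5 and Hoxb2 stand apart by age with no overlap between the arrays. The Hoxb3 probe marked shared also lists a Hoxd3 transcript. Levels are comparable within a probe only.

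Hoxb2, best known for its part in patterning the hindbrain, had the largest difference of the cluster. Its probe (A_52_P15300, chr11:96215122-96215181 of mm9, plus strand) read -3.28, -3.19, -3.35 and -3.02 on young arrays 3 to 6 and -1.57, -1.07, -1.32 and -0.57 on old arrays 2 to 5. The lowest old array lay 1.45 above the highest young array, and all 8 arrays were well above background. The means were -3.21 ± 0.14 and -1.13 ± 0.43 (SD, n = 4), a difference of 2.08 with a standard error of 0.23, and the probe ranked 41 of 33479 by its rise. In the fit over all probes its adjusted p was 0.00707 (limma). The difference was 1.79 on slide 1 and 2.37 on slide 2.

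On the chromosome Hoxb5 is separated from Hoxb2 by Hoxb4 and Hoxb3. Its probe (A_51_P436342, chr11:96167130-96167189, plus strand) read -4.43, -4.80, -4.16 and -4.38 on young arrays 3 to 6 and -2.82, -2.38, -2.79 and -2.40 on old arrays 2 to 5. The ages did not overlap here either, with a gap of 1.34. In young CMPs the signal was close to the limit of the array, and young array 5 was not well above background, whereas the 4 old arrays were. The means were -4.44 ± 0.27 and -2.60 ± 0.24 (SD, n = 4), which gives a difference of 1.85 with a standard error of 0.20, an adjusted p of 0.00707 (limma) and rank 53 by rise. On the linear scale of the deposited signal this was 19.3 to 24.6 units in young and 41.8 to 80.5 units in old CMPs. The difference was 1.82 on slide 1 and 1.88 on slide 2. Arrays that did not overlap by age were seen for 2 of the 6 tested HoxB probes, these 2, beside 4.43% of all tested probes.

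Both calls were kept when any 1 array was left out, with adjusted p between 0.0146 and 0.0411 for Hoxb5 and between 0.0107 and 0.0411 for Hoxb2 (limma). With 3 arrays per age, Hoxb5 was called in 2 and Hoxb2 in 4 of the 16 possible choices, while the differences stayed between 1.66 and 2.02 and between 1.85 and 2.29. The normexp background correction, which adds an offset of 50 units to every signal, shrank them to 0.90 for Hoxb5 (adjusted p = 0.056, limma, not called) and 1.23 for Hoxb2 (called). Both calls were lost under the replicate block over numbers 3 to 5, with 3 arrays per age (limma, adjusted p = 0.120 for Hoxb5 and 0.0905 for Hoxb2). The methods' t-test with Benjamini-Hochberg adjustment called 0 of the 33479 probes, and without adjustment it gave 3 of the 6 HoxB probes and 1831 of all probes.

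**Figure D2:**
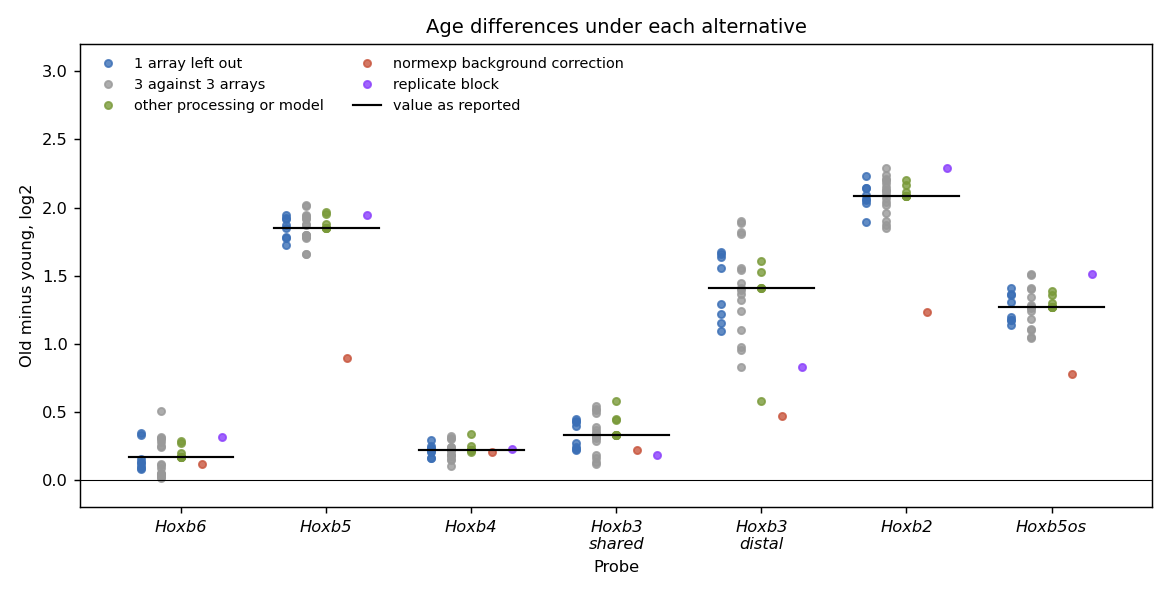
Old minus young difference (log2) of each tested HoxB probe and of the antisense probe Hoxb5os under the value as reported (black line), with 1 array left out (blue), with every choice of 3 young and 3 old arrays (grey), under normexp (red), under the replicate block (purple) and under the other alternatives (green). Hoxb5 and Hoxb2 lie between 1.66 and 2.29 except under normexp, and no point lies below 0.

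Hoxb4 lies between Hoxb5 and Hoxb3 in the order of the probes. Its probe (A_55_P2024993, chr11:96182885-96182944) lay above the 75th percentile on all 8 arrays. It read 0.51, 0.65, 0.65 and 0.90 in young and 1.07, 0.86, 0.81 and 0.84 in old CMPs, so that the ages overlapped. The means were 0.68 ± 0.16 and 0.90 ± 0.12 (SD, n = 4) and the difference was 0.22 with a standard error of 0.17 (limma, adjusted p = 0.998). On the linear scale this is 1.16-fold.

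Hoxb6, a gene that promotes myeloid growth when overexpressed in bone marrow, sits next to Hoxb5 on the other side (A_51_P232207, chr11:96162563-96162622). Its levels were -3.71, -3.65, -3.63 and -3.04 in young and -3.30, -3.10, -3.08 and -3.87 in old CMPs, overlapping fully. The difference was 0.17 with a standard error of 0.24 (limma, adjusted p = 0.998), and it was 0.49 on slide 1 and -0.15 on slide 2.

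For Hoxb3 the 2 probes lie at different places and gave different differences. The first had levels of -3.77, -3.26, -3.17 and -3.63 in young and -2.84, -2.78, -3.47 and -3.39 in old CMPs, with overlap. Its difference was 0.33 with a standard error of 0.23 (limma, adjusted p = 0.998). It is not specific for Hoxb3, because its transcript list in the files also holds a transcript that RefSeq assigns to Hoxd3. The other Hoxd3 probe of the array was above background on no array.

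The distal Hoxb3 probe (A_52_P312467, chr11:96209002-96209061), whose transcript list holds no Hoxd3, was well above background on 2 young and 2 old arrays. It read -5.05, -5.00, -6.37 and -6.74 in young and -3.60, -4.04, -4.82 and -5.07 in old CMPs. The young arrays above background, 3 and 4, lay on slide 1, and the lowest old array fell just below the highest young one. The means were -5.79 ± 0.90 and -4.38 ± 0.68 (SD, n = 4), a difference of 1.41 with a standard error of 0.47 (limma, adjusted p = 0.474). It was 0.82 on slide 1 and 2.00 on slide 2, and 0.47 under normexp. At this signal the size of the Hoxb3 difference could not be settled.

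The remaining genes, Hoxb13, Hoxb9, Hoxb8 and Hoxb7 at the posterior end and Hoxb1 at the anterior end, were well above background on 0 of 8 arrays. Hoxb8 keeps myeloid progenitors from maturing when it is forced on, Hoxb13 is known from the prostate and tail bud, and Hoxb1 from the hindbrain. Their levels lay between -7.45 and -6.15 on every array, below the dimmest detected probe, and no fold is given for them. The Hoxb1 probe was printed in 10 spots, which were averaged, and gave the same reading. Their transcripts were therefore not detectable at this signal in either age.

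Slide is a technical factor that played no part in the choice of the genes. With age and slide in 1 limma fit, 0 of the 6 HoxB probes were called for slide (adjusted p between 0.802 and 0.987), and 1 of the 6 had an unadjusted p under 0.05. Over all tested probes 0% were called for slide, and 5.6% had an unadjusted p under 0.05. With slide as a block Hoxb5 and Hoxb2 had adjusted p of 0.00436 and 0.00763 for age.

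Probes that lie between Hoxb13 and Hoxb1 but carry no HoxB gene name were not used in the choice. Whether they fall within a longer HoxB transcript was not checked. There are 22 of them, and 12 were tested. None was called by limma (0.191% of all tested probes), while 4 had an unadjusted p under 0.05 by limma and 4 by the methods' t-test. All old arrays lay above all young arrays for 4 of the 12, beside 2.86% of all tested probes. These 4 are not independent, as some of them read the same transcript. Their median difference was 0.16. Outside the cluster, within 500 kb, 0 of 55 tested probes on the Hoxb13 side and 0 of 13 on the Hoxb1 side were called by limma, with 1 and 0 at an unadjusted p under 0.05 by limma and 1 and 0 by the methods' t-test. None of these flanking probes had ages without overlap. Their medians were -0.11 and -0.03.

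**Figure D3:**
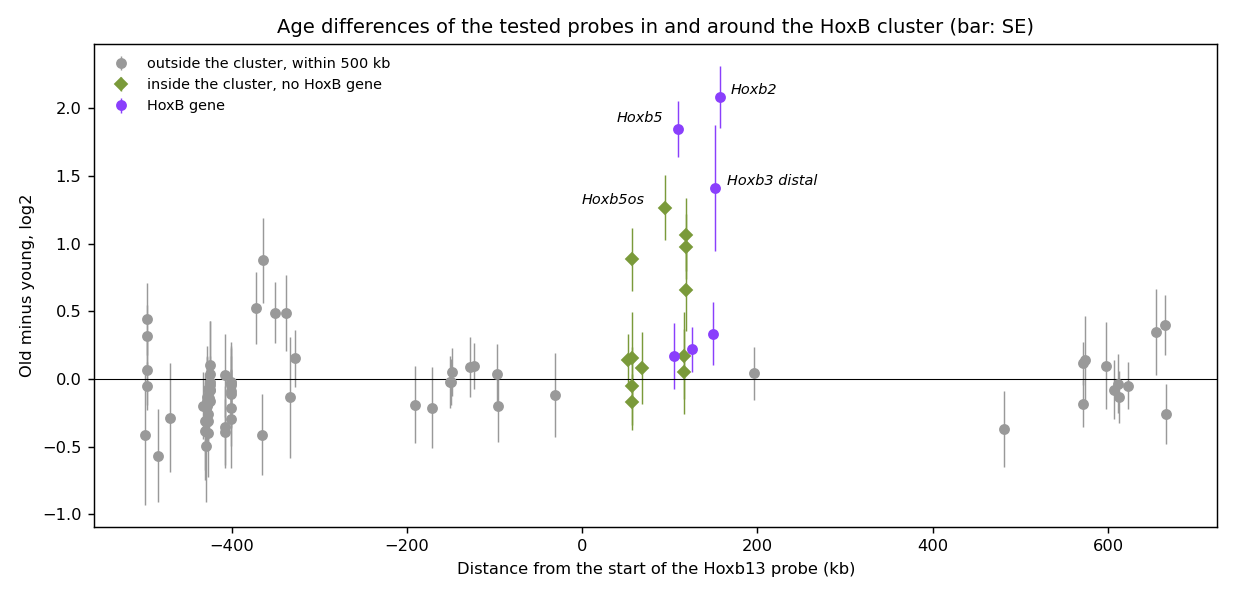
Old minus young difference (log2, bars SE) of every tested probe in and within 500 kb of the cluster against the distance in kb from the start of the Hoxb13 probe, for HoxB genes (purple), other probes inside the cluster (green) and probes outside (grey). The largest difference outside the cluster was 0.876, and those of Hoxb5os (1.27), Hoxb5 (1.85), the distal Hoxb3 probe (1.41) and Hoxb2 (2.08) inside it exceed that. So do the non-coding probes A_30_P01022855 (1.07) and A_30_P01019818 (0.98) and, barely, A_30_P01019010 (0.882).

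The 4 probes without overlap come from non-coding transcripts. The first (A_55_P2275437, minus strand) lies between the Hoxb7 and Hoxb6 probes. The files describe it by the old RIKEN name 0610040B09, and RefSeq now lists this gene as Hoxb5os, a long non-coding RNA whose gene overlaps Hoxb6 and Hoxb5, while its probe lies on the strand opposite to theirs. It read -3.19, -3.02, -2.53 and -2.52 in young and -1.99, -1.68, -1.27 and -1.26 in old CMPs. All 8 arrays were above background, and the highest young array lay 0.53 below the lowest old one. The difference was 1.27 (2.41-fold) with a standard error of 0.24, and its adjusted p of 0.113 (limma) did not pass, although under a shift of the arrays to the median it was called (1.38, adjusted p = 0.0458). The probes are single-stranded, so this one reads RNA of the minus strand.

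Between the Hoxb5 and Hoxb4 probes the array carries 3 probes of a long intergenic non-coding RNA on the plus strand (chr11:96175764-96176029). Its first probe read -2.48, -3.06, -1.94 and -2.77 in young and -2.57, -1.72, -1.89 and -1.45 in old CMPs, with overlap and a difference of 0.65 (standard error 0.30). The second read -3.13, -3.68, -3.56 and -3.52 in young and -3.11, -1.89, -2.20 and -2.42 in old CMPs, a difference of 1.07 (standard error 0.27) in which the lowest old array only just exceeded the highest young one. The third read -1.83, -2.41, -2.24 and -2.62 in young and -1.53, -1.18, -0.87 and -1.62 in old CMPs, a difference of 0.98 (standard error 0.24). All 3 probes of this short transcript thus had a higher mean in old CMPs, and none passed the test (limma, adjusted p = 0.818, 0.230 and 0.217). The sequences of the antisense probe and of these 3 probes follow because their place between the HoxB genes is what the array reads here, and no letters are singled out by capitals.
Hoxb5os probe, chr11:96152394-96152453, minus strand: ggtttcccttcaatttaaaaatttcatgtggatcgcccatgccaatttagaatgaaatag
lincRNA probe 1, chr11:96175777-96175836, plus strand: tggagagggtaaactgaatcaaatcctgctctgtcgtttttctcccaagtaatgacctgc
lincRNA probe 2, chr11:96175838-96175897, plus strand: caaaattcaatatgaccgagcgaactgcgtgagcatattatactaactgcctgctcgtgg
lincRNA probe 3, chr11:96175970-96176029, plus strand: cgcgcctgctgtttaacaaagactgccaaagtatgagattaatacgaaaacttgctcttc

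**Figure D4:**
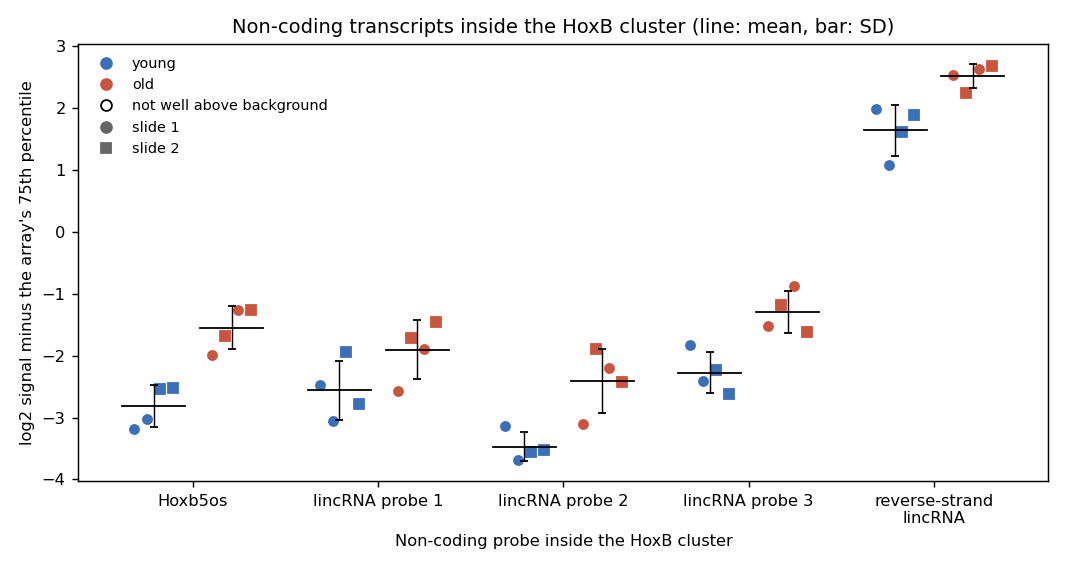
Level of 5 non-coding probes inside the HoxB cluster on each array on the log2 scale, relative to the 75th percentile of the array, for young (blue) and old (red) arrays on slide 1 (circles) and slide 2 (squares), with means (lines) and SD (bars). The ages do not overlap for Hoxb5os, lincRNA probes 2 and 3 and the reverse-strand lincRNA.

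The fourth probe without overlap (A_30_P01019010, chr11:96114981-96115040) reads a reverse-strand lincRNA between Hoxb13 and Hoxb9. It gave 1.98, 1.08, 1.62 and 1.89 in young and 2.54, 2.25, 2.64 and 2.68 in old CMPs. The difference was 0.88 with a standard error of 0.23 (limma, adjusted p = 0.258). Another probe of the same transcript (A_30_P01030733), less than a probe length away, differed by -0.05 with a standard error of 0.29, so the 2 probes disagree. The further probes of that transcript, A_30_P01023970 and A_30_P01031238, were above background on no array. The other 6 tested probes inside the cluster, which are 3 of forward-strand lincRNAs at the same place, 2 of a lincRNA next to the one between Hoxb5 and Hoxb4, and 1 with no gene in the files (A_55_P1998848), differed by between -0.17 and 0.17. Among the 10 probes that were not tested, those of Gm53 and Gm11538 were above background on no array and that of Gm11536 on 1 young array.

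The other Hox clusters served as a comparison. Over all tested probes limma called 0.191% and gave 6.34% an unadjusted p under 0.05. Of 11 HoxA genes, 8 were tested and 0 were called (limma, with 1 at an unadjusted p under 0.05 by limma and 1 by the methods' t-test), and their median difference was -0.16. The 3 HoxA genes shown have the probes of highest mean signal, which sets no order of transcript level between them, Hoxa7 (3.56 ± 0.24 in young and 3.35 ± 0.24 in old, SD, n = 4), Hoxa9, whose product drives the growth of early myeloid cells (-0.86 ± 0.34 and -0.98 ± 0.16), and Hoxa3 (-2.02 ± 0.51 and -2.57 ± 0.50). All 3 had overlapping ages. The HoxA gene with an unadjusted p under 0.05, named here after its values were seen, was Hoxa10, which read -3.19 ± 0.21 in young and -2.31 ± 0.34 in old CMPs (SD, n = 4), without overlap, a difference of 0.87 with a standard error of 0.22 (limma, adjusted p = 0.220). In the HoxC cluster 2 of 9 genes were tested, Hoxc12 and Hoxc6, and Hoxc6 was called. Its probe read -4.76 ± 0.45 in young and -2.66 ± 0.41 in old CMPs (SD, n = 4), without overlap, a difference of 2.10 with a standard error of 0.28 (4.28-fold, limma, adjusted p = 0.0249). In young CMPs this signal was close to the limit of the array, and 3 of the 4 young arrays were well above background. On Hoxc12 the difference was -0.21 with a standard error of 0.45, and on Hoxc8, which was not tested, 1 young and 1 old array were above background. No HoxD gene of 9 was tested, and 7 of them were above background on no array.

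No tested TALE homeodomain cofactor and no tested regulator of the Hox clusters was called by limma. Of 9 cofactor genes 7 were tested and 0 were called (limma, with 2 at an unadjusted p under 0.05 by limma and 2 by the methods' t-test), with a median of 0.05. Those 2 were Meis1, which partners Hoxa9 in leukaemia, and Pbx3, and both are named here after their values were seen. For both, every old array lay above every young one, beside 2.86% of all tested probes. By limma 6.34% of all tested probes had an unadjusted p under 0.05. Meis1 ranged from 3.47 to 3.92 in young and from 4.17 to 4.49 in old CMPs (difference 0.65, standard error 0.18, limma, adjusted p = 0.304). Pbx3 ranged from 0.28 to 0.86 in young and from 0.99 to 1.45 in old CMPs (difference 0.67, standard error 0.20, limma, adjusted p = 0.366). The list of regulators held 27 names of Polycomb, Trithorax and Cdx genes and further chromatin factors, of which 26 were on the array and 23 were tested. Among them 0 were called (limma, with 0 at an unadjusted p under 0.05 by limma and 0 by the methods' t-test), and their median was -0.10. Cdx4, a direct activator of Hox genes in the embryo, was above background on no array.

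Markers of other blood and marrow cell types were read as lists beside the HoxB genes. Like the lists of Hox genes, cofactors and regulators above, they were chosen with earlier results of these data known. Their counts are therefore a description, and nothing further is read from them. The gate of the study (lineage-negative, cKit+, Sca-1-, CD34+, low for Fc gamma receptor) is meant to leave out mature cells and, by Sca-1 and CD34, HSCs. In bulk RNA, fewer cells of a type and less RNA per cell cannot be told apart. Of the HSC markers 10 of 11 were tested, 6 had a higher and 4 a lower mean in old CMPs and 0 were called (limma, with 3 at an unadjusted p under 0.05 by limma and 3 by the methods' t-test). Their median was 0.36, and their summed level, the log2 of their added linear signals relative to the 75th percentile, was 2.43 to 2.90 in young and 2.96 to 3.37 in old CMPs, with no overlap. This separation rests on Esam, an adhesion molecule of HSCs and endothelium, which read 0.50 ± 0.44 in young and 1.74 ± 0.42 in old CMPs (SD, n = 4, limma, adjusted p = 0.168). With Esam left out, a choice made after its values were seen, the sums were 2.15 to 2.48 and 2.32 to 2.48 and overlapped. Esam was not the only HSC marker that was higher without overlap. Of the 10 tested, 2 were higher and 1 was lower in old CMPs without overlap between the ages. Over all tested probes 4.43% had ages without overlap, and 6.34% had an unadjusted p under 0.05 by limma. The lower one was Ly6a, which encodes Sca-1, at -0.12 ± 0.18 in young and -0.85 ± 0.40 in old (SD, n = 4, limma, adjusted p = 0.414). Procr, a surface marker of HSCs, read -0.36 ± 0.43 in young and -0.66 ± 0.27 in old, and the HSC transcription factor Hlf read -0.20 ± 0.25 and 0.23 ± 0.32 (SD, n = 4). Neither was called (limma, adjusted p = 0.998 and 0.879).

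Megakaryocyte markers went the same way as Hoxb5 and Hoxb2. All 13 were tested, and 13 had a higher mean in old CMPs, with a median difference of 1.13, while 1 was called, the platelet glycoprotein Gp9 (difference 1.21, standard error 0.17, limma, adjusted p = 0.0327). An unadjusted p under 0.05 was seen for 12 of the 13 by limma, beside 6.34% of all tested probes, and for 10 by the methods' t-test. In 10 of the 13 every old array lay above every young one, beside 2.86% of all tested probes. Their summed level was 6.61 to 7.61 in young and 8.15 to 8.56 in old CMPs. Pf4, a platelet chemokine, read 6.25 ± 0.53 and 7.61 ± 0.27, and Itga2b, the CD41 chain, 2.82 ± 0.49 and 4.04 ± 0.55 (SD, n = 4), without overlap but not called (limma, adjusted p = 0.130 and 0.272). HSCs themselves also express some of these genes, such as Itga2b and Vwf.

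Granulocyte and monocyte markers went the other way. Of 13 genes 10 were tested, 9 had a lower mean in old CMPs and 0 were called (limma, with 5 at an unadjusted p under 0.05 by limma and 4 by the methods' t-test). Over all tested probes 6.34% had an unadjusted p under 0.05 by limma, and only 46.7% had a higher mean in old CMPs. The summed level of the granulocyte and monocyte markers was 9.76 to 10.2 in young and 9.25 to 9.53 in old CMPs. Mpo, the myeloperoxidase of granules, read 9.18 ± 0.20 and 8.58 ± 0.11 (SD, n = 4, limma, adjusted p = 0.356). The summed levels of erythroid, lymphoid, endothelial, stromal and CMP gate markers overlapped between the ages. In these 5 lists 9 of 10, 6 of 12, 4 of 5, 4 of 8 and 4 of 4 genes were tested, and 0 were called (limma, with 1, 0, 2, 1 and 0 at an unadjusted p under 0.05 by limma and 1, 0, 2, 1 and 1 by the methods' t-test). All 6 tested lymphoid genes had a lower mean in old CMPs, with a median of -0.25. The endothelial list had a median of 0.63, and 2 of its 4 tested genes, Emcn (difference 0.96, limma, adjusted p = 0.187) and Tie1 (1.01, limma, adjusted p = 0.211), were higher without overlap. Its sum is mainly Kdr (4.10 ± 0.19 in young and 4.05 ± 0.28 in old, SD, n = 4), and with Kdr left out the sums were 0.65 to 1.59 and 1.51 to 2.28. Whether the marker differences of the HSC, megakaryocyte, endothelial and granulocyte-monocyte lists have a part in the HoxB differences was not tested.

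**Figure D5:**
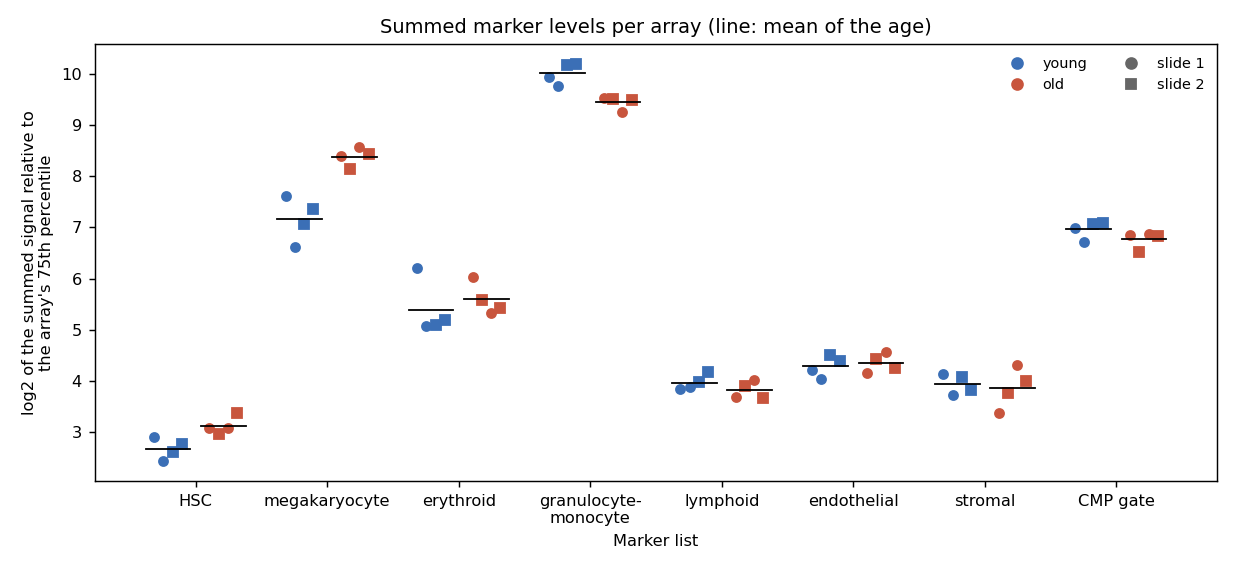
Summed signal of each cell type's marker list per array, as log2 relative to the array's 75th percentile, for young (blue) and old (red) arrays on slide 1 (circles) and slide 2 (squares), with the mean of each age as a line. The ages do not overlap for the HSC list (2.43 to 2.90 against 2.96 to 3.37), the megakaryocyte list and the granulocyte-monocyte list, and overlap for the other 5.

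The genes whose pattern over the 8 arrays was most like the mean profile of the 6 tested HoxB probes were Adamts14, a metalloprotease that cuts procollagen (Pearson correlation 0.99), Tesc, a calcium-binding protein (0.98), Sprr2a2, a protein of the cornified envelope (0.97), Ufsp1, a protease of the Ufm1 pathway (0.97), and Lat, an adaptor of T cell and platelet signalling (0.97). As the profile is mainly an age difference, these are mainly genes that differ by age, and after each age's mean was taken away the correlations were 0.70, 0.75, 0.69, 0.95 and 0.35. Treated the same way, the distal Hoxb3 probe correlated at -0.54 with Hoxb5 and -0.50 with Hoxb2, while Hoxb5 and Hoxb2 correlated at 0.46. Over all pairs of the 6 tested HoxB probes these within-age correlations ranged from -0.54 to 0.50. The distal Hoxb3 probe was well above background on only 4 of the 8 arrays. It also varied most within an age, so it weighs heavily in the mean profile. Whether the HoxB probes share a pattern within an age could therefore not be settled. A likeness to the mean profile is not a likeness to each HoxB gene. Of the 5, Sprr2a2 was called (difference 4.16, limma, adjusted p = 0.00707). The correlations are over 8 arrays and are given as a description.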

How the data were processed

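RNA of sorted CMPs had been labelled with Cy3 and hybridised to 1-colour Agilent arrays, and per the labels the scans were read with Agilent Feature Extraction 10.7.3.1. For each array, linear spot intensity after the software's background correction was deposited, with quality marks and mm9 probe coordinates. A processed matrix of log2 values from the authors, aligned at the 75th percentile and then baseline-shifted, served as an alternative only, and both Hoxb3 probes share a single value there.

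Intensities were put on the log2 scale, minus the 75th percentile of 59305 non-control spots. Outlier spots (141 to 230 per array) were left out, spots of a probe were averaged, and 33479 probes well above background on at least 4 of 8 arrays were tested in R 4.3.3 with limma 3.58.1 (lmFit, eBayes, Benjamini-Hochberg over all tested probes, call at adjusted p under 0.05 and 1.5-fold). The script was tested on simulated data. The methods' t-test is the unpaired test for unequal variances named there for other assays. The number of arrays limits the precision.

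Groups came from the labels. The study's methods speak of 3 mice per age, and no label says which arrays they are, so every choice of 3 and 3 arrays was tried. Replicate numbers 3 to 5 occur in both ages, and the deviations of same-numbered arrays correlated at -0.09, -0.14 and 0.15, so the samples were not treated as paired. The named genes are all HoxB members, all other probes inside the cluster, called probes within 500 kb, called list members and up to 3 genes of highest mean signal per other Hox cluster, the 5 genes most like the HoxB profile, and defining markers. A list gene was read by its probe of highest mean. Members and lists were chosen with earlier results of these data known. A probe sequence and a listed marker gene are not reported here by name. RefSeq (GRCm38.p6) was used for gene names and order only.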

Additional observations from a re-analysis of the deposited data

Results flagged for a closer look

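Among the 24 groups of 4 arrays examined (the 11 HoxB probes and Hoxb5os in each age), 2 held an array that stood far from the other arrays of its age, and chance marks about 1 in 20 such groups. For Hoxb6, young array 6 read -3.04 while the nearest young array read -3.63, a gap of 0.878 of the range of the group. For Hoxb1, old array 2 read -7.28 and the nearest old array -6.68, a gap of 0.877 of the range, at a signal below background on every array.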

How the results depend on the processing

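Old minus young was above 0 for the 6 HoxB probes described as tested and for Hoxb5os under every alternative that kept them. The 5 dim probes, which enter only with no filter, are not covered by this, and some of them were below 0. Of the HoxB probes 2 were called, with 1 left under normexp and under the filter for all 8 arrays (which drops Hoxb5), and 0 under the methods' t-test with Benjamini-Hochberg adjustment, which called 0 of all 33479 probes. Leaving out 1 array kept 2 calls. With 1 array of each age left out, an alternative chosen after seeing the data, the count ranged from 0 to 2. The median of 0.87 was 0.35 under normexp, 0.20 with no filter, 0.28 and 0.33 under the filters for all 8 arrays and for all arrays of 1 age, and 0.58 with the series table. It ranged from 0.69 to 1.04 with 1 array left out and from 0.57 to 1.15 with 1 of each age left out. A shift to the median called 1 probe inside the cluster, Hoxb5os, in place of 0. With the replicate block over numbers 3 to 5, so 3 arrays per age, 0 HoxB probes were called, the median was 0.57, and Hoxb5 (1.94, limma, adjusted p = 0.120) and Hoxb2 (2.29, limma, adjusted p = 0.0905) missed the threshold. The same arrays without the block (young 6 and old 2 left out) called Hoxb2 (limma, adjusted p = 0.0402) but not Hoxb5 (limma, adjusted p = 0.0801). Some alternatives use fewer arrays or probes, and the causes of these changes were not tested. Signal over background limits Hoxb5 in young CMPs, the distal Hoxb3 probe, and the 5 genes that were not detectable.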
